A study of Mus musculus with 2 samples.

Results

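The forkhead genes were defined as the protein-coding mouse genes whose symbol is Fox, 1 letter and a number. By this rule 44 genes were found among 21853 protein-coding genes with an annotated start, on 16 chromosomes. DNase-seq, which maps DNA that is accessible to the enzyme DNase I in nuclei, had been run on limb tissue of mouse embryos at 11.5 days (strain B6NCrl, male and female embryos pooled). Both libraries belong to this single group, limb, with no other genotype or treatment, as biological replicates 1 and 2. The labels give both the same donor identifier and do not give the shares of forelimb and hindlimb. With no second group there was no comparison of conditions to test, so each value is set beside the same value over all protein-coding genes, and differences between the replicates could not be tested. In whole tissue, accessibility in a few cells and weak accessibility in many cells cannot be told apart.

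Forkhead proteins bind DNA through a winged-helix domain. The Foxa proteins are the best known pioneer factors, able to bind their sites in closed chromatin, and Foxo proteins are moved out of the nucleus when insulin and growth factor signals activate the kinase Akt. In embryonic mesenchyme Foxc, Foxd and Foxf genes act in skeletal, kidney, palate and gut mesenchyme, and several Foxf and Foxc genes are known to respond to Hedgehog signals. Other members are known for single tissues, such as Foxn1 in the thymus, Foxj1 in ciliated cells and Foxp3 in regulatory T cells.

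A peak is a deposited interval of 150 bp with a signal value set by the authors, and a hotspot is a wider deposited interval. A shared peak is the merged region of peaks from both libraries that overlap by at least 1 bp. A promoter peak has its centre within 1 kb of a start of the gene. A distal peak lies more than 1 kb from every protein-coding start and was given to the gene with the nearest start within 500 kb, which does not show which gene it acts on. The lists held 174611 peaks in replicate 1 and 167550 in replicate 2, of which 118486 regions were shared, and their read depth is unknown. Marker genes were counted for the labelled tissue. A shared promoter peak was present at 9 of 9 limb mesenchyme, 4 of 6 surface ectoderm and ridge and 4 of 4 neural genes. It was present at 2 of 4 muscle, 2 of 5 endothelial and 1 of 5 gut and liver genes. The share over all protein-coding genes was 66.8%. Neural genes scored as high as limb mesenchyme genes, so these counts cannot single out limb. A shared promoter peak was present at 0 of 4 erythroid and 0 of 4 macrophage genes. Klf1 and Spi1 had 1 promoter peak each in replicate 2 alone, and Ptprc had 1 in replicate 1 alone. Gata1, Hbb-y, Alas2, Csf1r and Aif1 had none in either library. Ptprc also had 28 distal shared peaks. The part of other cell types in the results below was not tested.

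The strongest distal shared peak is shown for each of the 6 forkhead genes with the most distal shared peaks (GRCm38, also called mm10, plus strand). Their signals ranked at mean percentiles of 83.9 (Foxd3) to 95.9 (Foxn3) of the 2 lists, so they do not stand for the weaker distal peaks. Capitals mark words searched on both strands, here the E-box CATCTG, the MEIS word TGACAG and the TEAD word GGAATG, so that a reverse complement such as CAGATG is also marked. Parts that fall in annotated exons are left out.
Foxp1 distal peak, chr6:99485136-99485285: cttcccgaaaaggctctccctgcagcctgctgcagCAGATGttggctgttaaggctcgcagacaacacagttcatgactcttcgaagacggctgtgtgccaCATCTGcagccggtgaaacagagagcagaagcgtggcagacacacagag
Foxc1 distal peak, chr13:31853636-31853785: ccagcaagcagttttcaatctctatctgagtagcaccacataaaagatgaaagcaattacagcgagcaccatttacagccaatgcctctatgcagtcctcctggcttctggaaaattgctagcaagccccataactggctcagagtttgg
Foxn3 distal peak, chr12:99627975-99628085: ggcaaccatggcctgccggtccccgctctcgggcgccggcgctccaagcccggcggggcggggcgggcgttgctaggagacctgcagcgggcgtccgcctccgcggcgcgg
Foxo1 distal peak, chr3:52242576-52242725: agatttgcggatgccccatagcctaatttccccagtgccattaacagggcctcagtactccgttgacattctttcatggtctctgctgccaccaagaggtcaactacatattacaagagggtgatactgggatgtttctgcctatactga
Foxl1 distal peak, chr8:121301096-121301245: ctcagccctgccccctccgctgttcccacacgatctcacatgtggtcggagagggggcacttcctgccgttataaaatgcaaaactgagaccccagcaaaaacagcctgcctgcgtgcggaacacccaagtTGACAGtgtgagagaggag
Foxd3 distal peak, chr4:99661126-99661275: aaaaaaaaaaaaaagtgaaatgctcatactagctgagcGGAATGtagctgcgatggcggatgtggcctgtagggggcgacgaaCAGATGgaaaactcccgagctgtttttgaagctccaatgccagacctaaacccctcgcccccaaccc
The Foxp1 element lies in an intron of Foxp1, 35.8 kb from a start, with deposited signals of 93 in replicate 1 and 84 in replicate 2. The Foxc1 element, in the body of the neighbouring gene Gmds 47.1 kb from Foxc1, had signals of 103 and 91. The Foxl1 element lies 173 kb away with 108 and 114, inside the annotated gene Gm20388, whose annotation spans this region. The Foxd3 element is 4.90 kb from the start, with 83 and 73, and the Foxo1 element 25.7 kb upstream had 88 and 80. The Foxn3 element had 110 and 115 and holds 18 CpG pairs in its 111 printed bases. It lies 64.5 kb from Foxn3 but 36.5 bp from a start of the long noncoding RNA 1700064M15Rik, so here the nearest protein-coding start is not the nearest start.

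The strongest promoter shared peaks in the family belonged by this rule to Foxa3, Foxn3 and Foxk2 (plus strand, no searched word in any of them).
Foxa3 promoter peak, chr7:19024236-19024376: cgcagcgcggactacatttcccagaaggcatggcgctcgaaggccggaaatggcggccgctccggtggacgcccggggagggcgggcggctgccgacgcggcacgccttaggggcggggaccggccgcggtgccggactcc
Foxn3 promoter peak, chr12:99392076-99392225: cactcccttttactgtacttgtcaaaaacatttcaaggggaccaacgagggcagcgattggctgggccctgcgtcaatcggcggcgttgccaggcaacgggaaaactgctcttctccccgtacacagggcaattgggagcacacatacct
Foxk2 promoter peak, chr11:121259856-121259989: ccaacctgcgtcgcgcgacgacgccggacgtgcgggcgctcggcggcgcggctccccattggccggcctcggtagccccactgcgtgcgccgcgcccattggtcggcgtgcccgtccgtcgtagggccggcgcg
The Foxk2 peak, 60 bp before the first base of the gene, had signals of 116 in replicate 1 and 127 in replicate 2. The Foxn3 peak, at 121 and 126, lies 0.92 kb from an internal start and 171 kb from the most upstream one. The Foxa3 peak, at 129 and 135, lies 772 bp from the Foxa3 start and 66.5 bp from a start of Sympk, a gene of RNA 3′ end processing. Foxa3 had no hotspot over its own start in either library.

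Promoter peaks were common in the family but not evenly spread. A shared promoter peak was present at 33 of 44 forkhead genes (75%), against 66.8% of all protein-coding genes. Replicate 1 alone had a promoter peak at 34 and replicate 2 alone at 37. The members were also grouped by textbook role, with earlier results of these data known. Expression was not measured here, and the group called broad is loosely named, above all for Foxo6 and Foxp2. All 14 members of the broad group had a shared promoter peak. They were the insulin-regulated Foxo1, Foxo3, Foxo4 and Foxo6, the repressors Foxp1, Foxp2 and Foxp4, and Foxk1 and Foxk2. The others were Foxj2, Foxj3, Foxn2, Foxn3, and Foxm1, which drives genes of mitosis. A shared promoter peak was also present at 8 of 9 mesenchyme and mesoderm members (all but Foxl1). It was present at 5 of 6 neural and early members (all but Foxh1, the partner of Smad2 in Nodal signalling). Among factors of epithelia, thymus, ear, ionocytes and cilia the count was 4 of 9, namely Foxi2, Foxi3, Foxj1 and Foxn4. It was 1 of 3 for the endoderm factors, where the only one was the Foxa3 peak beside Sympk, and 1 of 3 for Foxp3, Foxr1 and Foxr2.

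Of 21853 protein-coding genes, 14938 had a promoter peak in replicate 1, 365 had one in replicate 2 alone and the rest had none. Of the 11 members with no shared promoter peak, 6 had none in either library, a state less frequent among members than over all genes. These were Foxa2, a factor of node, floor plate and gut, Foxh1, Foxi1, an ionocyte and inner ear factor, Foxn1, and the little studied Foxr1 and Foxr2. Foxa1, Foxe1 (thyroid and palate), Foxe3 (lens) and Foxq1 (known for hair) had a promoter peak in replicate 2 alone, a state found at 1.67% of all protein-coding genes. Foxl1, a factor of gut mesenchyme, had 3 promoter peaks in replicate 1 and 0 in replicate 2, a state found at 1.29%.

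A CpG-rich start without a shared peak was unusual over all genes and occurred at 5 forkhead genes. The CpG ratio, observed over expected CpG pairs within 500 bp of the most upstream start, was 0.6 or more at 33 members, and 5 of these had no shared promoter peak (28 of 33, or 84.8%, had one). Over all protein-coding genes with such a ratio, 2.63% lacked a shared promoter peak. The 5 genes were Foxa1 (ratio 0.88), Foxe3 (0.77), Foxl1 (0.77), Foxe1 (0.69) and Foxr1 (0.63). The 150 bases before the first start of 3 of them are shown with each CpG in capitals, in the direction of transcription, beside Foxo3, which has a shared peak and the widest start hotspot of the family by the mean of both libraries; they were chosen after their values were seen.
Foxa1 upstream, chr12:57546122-57546271, minus strand: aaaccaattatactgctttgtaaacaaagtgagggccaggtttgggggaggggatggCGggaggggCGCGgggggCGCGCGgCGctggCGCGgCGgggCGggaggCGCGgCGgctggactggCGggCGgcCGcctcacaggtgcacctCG
Foxe1 upstream, chr4:46343459-46343608, plus strand: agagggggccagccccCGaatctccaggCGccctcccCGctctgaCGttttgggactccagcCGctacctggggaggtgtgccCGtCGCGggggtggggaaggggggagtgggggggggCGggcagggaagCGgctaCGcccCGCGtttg
Foxe3 upstream, chr4:114926014-114926163, minus strand: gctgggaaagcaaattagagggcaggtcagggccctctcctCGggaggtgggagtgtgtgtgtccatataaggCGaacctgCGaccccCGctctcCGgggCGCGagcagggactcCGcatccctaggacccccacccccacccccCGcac
Foxo3 upstream, chr10:42276756-42276905, minus strand: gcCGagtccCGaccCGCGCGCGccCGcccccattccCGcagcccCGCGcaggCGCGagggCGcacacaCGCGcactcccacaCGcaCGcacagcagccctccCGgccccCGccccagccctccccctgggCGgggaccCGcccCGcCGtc
These stretches hold 18 CpG pairs at Foxa1, 13 at Foxe1 and 9 at Foxe3, against 23 at Foxo3. Foxe1 had 0 promoter peaks and 0 bp of hotspot within 2 kb of its start in replicate 1, and 2 peaks and 1419 bp in replicate 2. Foxa1 had 250 bp of hotspot in replicate 1 and 494 bp in replicate 2, and Foxe3 had 0 and 201 bp. Foxl1 went the other way, with 879 bp in replicate 1 and 0 bp in replicate 2. Foxr1 had 0 bp in both. Below a ratio of 0.6, 5 of 11 members had a shared promoter peak (45.5%), close to the 40.1% of all such genes; the lowest of these, 0.18 at Foxj3, refers to an upstream alternative start and not to the start under its hotspot.

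**Figure D1:**
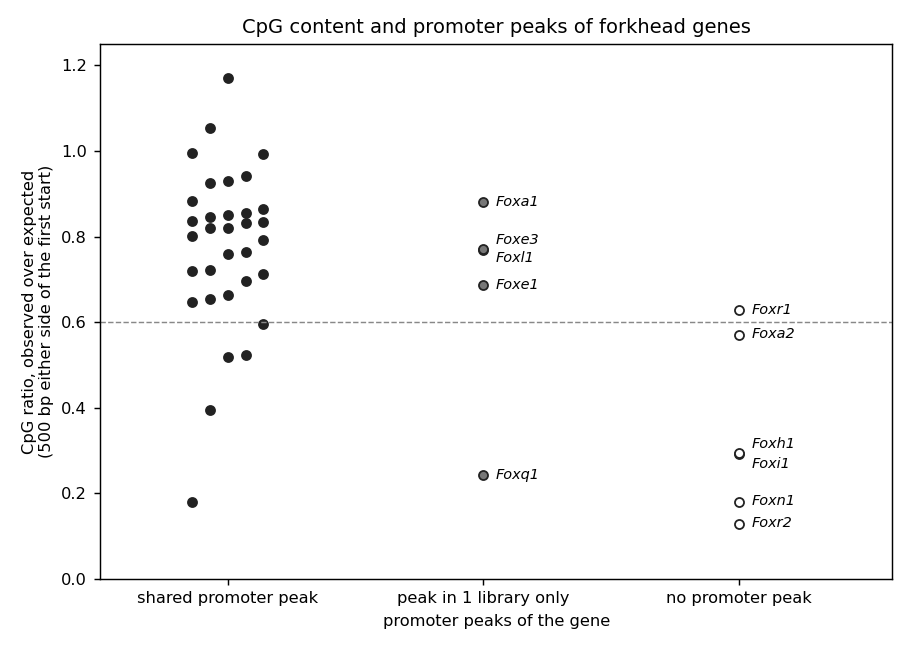
CpG ratio (vertical axis, observed over expected within 500 bp of the most upstream start) of the 44 forkhead genes, by whether a promoter peak was shared, seen in 1 library only or absent. Each point is a gene and the dashed line marks a ratio of 0.6; Foxa1, Foxe1, Foxe3, Foxl1 and Foxr1 lie above it without a shared peak.

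At members with a shared promoter peak, the share with the start itself under a hotspot was below that of all protein-coding genes, as it also was at Tbx genes. A hotspot covered a start in both libraries at 23 of 44 members (52.3%), against 61.6% of all genes. Of the 33 members with a shared promoter peak, 23 also had a hotspot over a start in both libraries (69.7%), against 92.1% of all genes with such a peak. The nearest shared peak was centred within 150 bp of a start at 21 of these 33 (63.6%), against 85.1%. Other families lay on both sides: of those with a shared promoter peak, 6 of 10 Tbx, 15 of 16 Sox and 5 of 5 Irx genes had a start hotspot in both libraries, and 6 Tbx, 12 Sox and 5 Irx genes had a peak centred within 150 bp. These differences were not tested. Of the 14 broad members 13 had a start hotspot in both libraries (92.9%) and 11 had a peak within 150 bp (78.6%). The member without that hotspot was Foxo6, whose only shared promoter peak was centred 672 bp upstream with signals of 116 and 117. Among the 5 neural and early members with a shared promoter peak, 0 had a hotspot over a start in both libraries and 0 had a peak centred within 150 bp. At 4 of them a hotspot covered the start in 1 library alone. Its width was 271 bp at Foxb1 in replicate 1. In replicate 2 it was 806 bp at Foxb2, 988 bp at Foxd3 and 3505 bp at Foxd4. The nearest peaks of these 4 were 186 bp from a start at Foxd4 (early neuroectoderm) and 202 bp at Foxd3 (neural crest). They were 230 bp away at Foxb1 (hypothalamus and spinal cord) and 294 bp at Foxb2. The highest promoter signals of these 4 lay in the middle to upper part of the lists, at percentiles 49.7 (Foxd4) to 72.8 (Foxb2) of replicate 1 and 56.8 (Foxb1) to 77.1 (Foxb2) of replicate 2. They were 47 in each replicate for Foxd4, 53 and 52 for Foxd3, 53 and 44 for Foxb1, and 66 and 64 for Foxb2. Foxn4, also a factor of neural progenitors, was counted in the epithelial group. It had start hotspots of 209 bp in replicate 1 and 258 bp in replicate 2 and a shared peak 34 bp from its start. The counts of 0 in the neural and early group therefore depend on the grouping. In the broad group the highest promoter signals ran from 84 at Foxj2 to 121 at Foxn3 in replicate 1 and from 81 at Foxj2 to 127 at Foxk2 in replicate 2.

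Several shared promoter peaks were nearer to another annotated start. This held for at least 1 promoter shared peak at 11 of the 33 members that had one, against 21.7% of all genes with such a peak. It held for all promoter shared peaks of a member only at Foxa3 and Foxf1, each with 1 peak. The Foxf1 peak, with signals of 84 and 76, was 646 bp from the Foxf1 start and 630.5 bp from a start of Fendrr, the noncoding RNA transcribed away from Foxf1. At Foxm1 the strongest peak (91 in replicate 1 and 108 in replicate 2) was centred 56 bp from the Foxm1 start and 0.5 bp from a start of Rhno1. At Foxp3 the stronger peak (101 and 115) was 746 bp from a start and 101.5 bp from that of its antisense RNA Flicr, while the peak 16 bp from the Foxp3 start had 35 and 40. Accessibility from such paired starts cannot be told apart here.

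A few broad members had wide hotspots in both libraries. Hotspots of 2 kb or more covered a start in both libraries at 5 members, Foxo3, Foxo1, Foxp2, Foxn2 and Foxj3, against 4.27% of all genes. Foxo3 had the widest by the mean of both libraries, at 4128 bp in replicate 1 and 4623 bp in replicate 2. Foxo1 had 2080 and 3175 bp, Foxp2 2740 and 2756 bp, Foxn2 2246 and 2613 bp, and Foxj3 2126 and 2026 bp. In replicate 1 alone 6 members reached 2 kb, with Foxc1 as the sixth at 2246 bp (1410 bp in replicate 2), against 5.42% of all genes. In replicate 2 alone 9 did, against 7.59%. The 4 members added there were Foxd1 (333 bp in replicate 1 and 7308 bp in replicate 2), Foxd4 (0 and 3505 bp), Foxi3, a factor of ear and skin placodes (647 and 2435 bp), and Foxn3 (1320 and 2280 bp). Of the 23 members with a start hotspot in both libraries, 19 had the wider one in replicate 2, where 67.3% of all such genes did. A hotspot that is broken into pieces in 1 library changes width more than cover: within 2 kb of the Foxd1 start hotspots covered 2077 bp in replicate 1 and all 4001 bp in replicate 2.

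**Figure D2:**
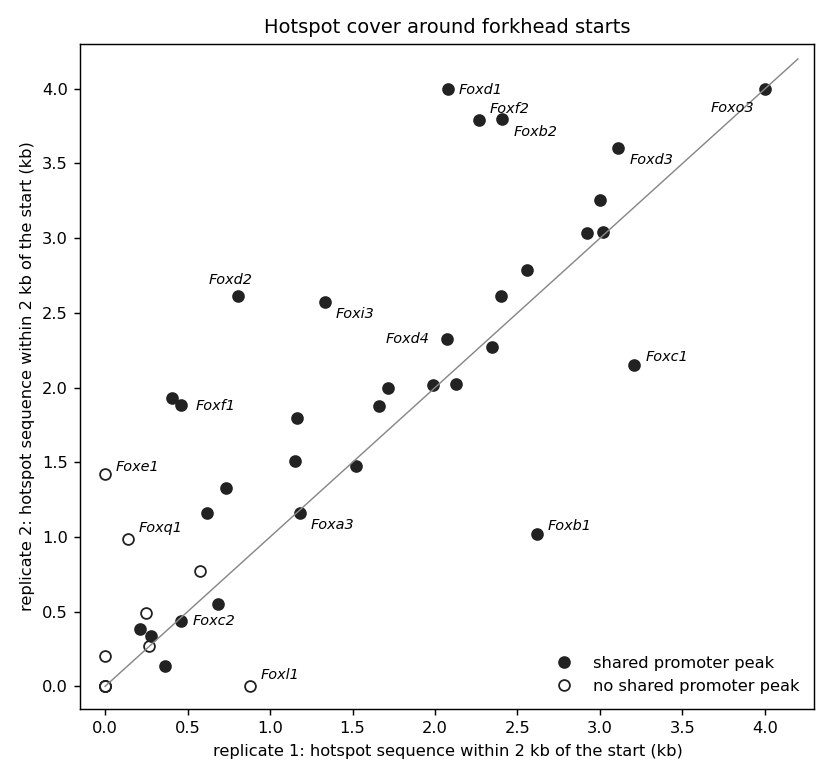
Sequence covered by hotspots within 2 kb of a start (kb), replicate 1 on the horizontal and replicate 2 on the vertical axis, for the 44 forkhead genes; filled points have a shared promoter peak and the line marks equal cover. Foxo3 lies at the top of the line, Foxd1, Foxf2, Foxf1 and Foxe1 lie above it, and Foxb1, Foxc1 and Foxl1 below it.

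Distal peaks were more numerous near forkhead genes than near the typical gene. The median was 6.5 distal shared peaks per member, against 1 over all protein-coding genes. In the libraries alone the medians were 10.5 and 10.5, against 2 and 2. Members with 10 or more numbered 17 of 44 (38.6%), against 12% of all genes, and 11 had 20 or more, against 4.08%. The sum was 516 shared, with 761 in replicate 1 and 790 in replicate 2. Across the 44 genes the counts of the libraries ranked alike (Spearman rho 0.97). Counts also went with the length of sequence nearest to the gene (Spearman rho 0.86 with shared counts), and that length had a median of 97.1 kb at members, against 43.7 kb. Per 100 kb of that sequence the median was 6.90 distal shared peaks at members, against 3.01. The same measures at other families were similar or higher: a median of 11 distal shared peaks over 19 Sox genes, 5 over 13 Tbx genes and 33.5 over 6 Irx genes, and 7.52, 8.43 and 6.14 per 100 kb.

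**Figure D3:**
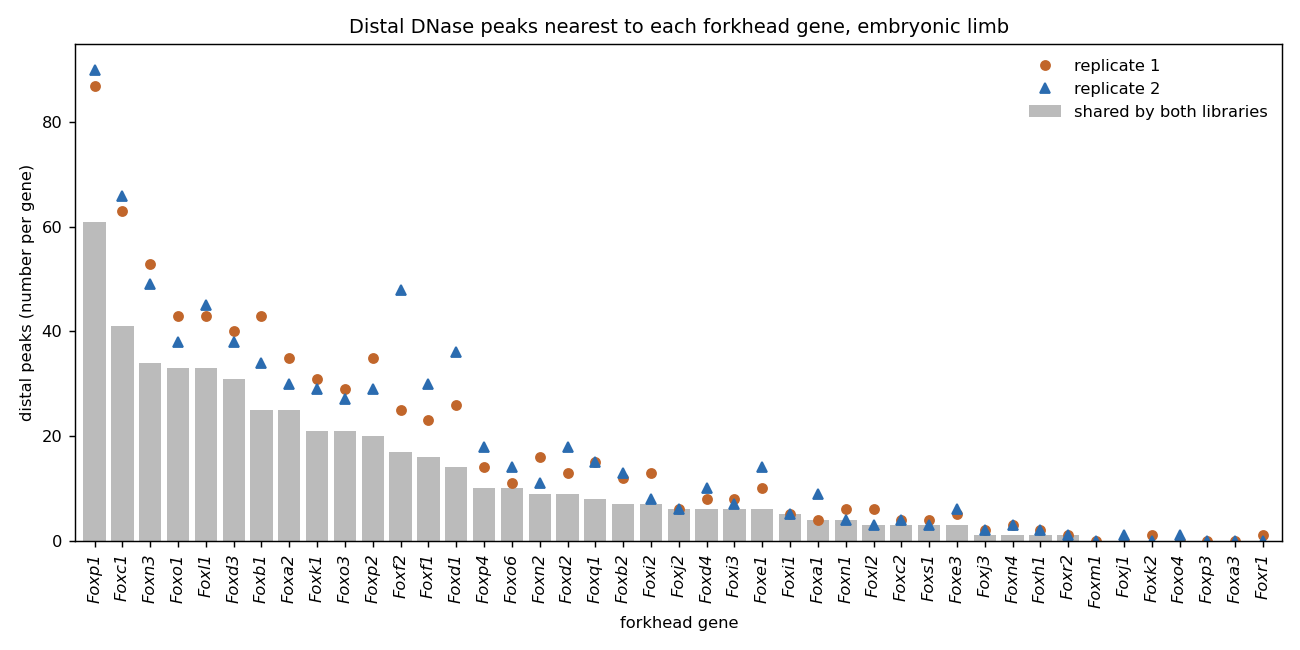
Distal peaks per gene for 43 of the 44 forkhead genes (vertical axis, number) in replicate 1 (circles), in replicate 2 (triangles) and shared by both (bars). Foxp1, with 61 shared, leads; triangles stand well above circles at Foxf2 and Foxd1, and the order is reversed at Foxb1.

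Most distal peaks belonged to a few genes. The 12 members with the most held 70.2% of the 516, and the first 6 held 233. Uneven counts are not particular to the family: over all protein-coding genes the median was 1, and 4.08% had 20 or more. Foxp1, a repressor known for motor neuron and lymphocyte identity, had 87 distal peaks in replicate 1, 90 in replicate 2 and 61 shared, 47 of them in its own introns. It is also the longest member (chromosome 6, 98925338 to 99522721), and 53 shared peaks lay within its body. Foxc1, a factor of skeletal and eye mesenchyme (chromosome 13, 31806633 to 31812476), had 63, 66 and 41. Foxn3, a cell cycle checkpoint repressor, had 53, 49 and 34, with 20 in its own introns. Foxo1 had 43, 38 and 33, Foxk1, a repressor tied to glycolysis and autophagy, 31, 29 and 21, and Foxo3 29, 27 and 21. Foxp2, known for vocal learning and speech circuits, had 35, 29 and 20. These genes had a shared promoter peak as well.

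Of the other 5 of the 12, Foxd3, Foxb1 and Foxf2 also had a shared promoter peak. Foxl1 had 43, 45 and 33 with no shared promoter peak, and Foxa2 35, 30 and 25 with no promoter peak at all. The Foxa2 peaks lay far out: the median distance was 160 kb, only 2 were within 50 kb, and all 25 were intergenic. Those of Foxl1 had a median distance of 92.7 kb, and 8 were within 50 kb. Foxd3 had 40, 38 and 31, and these were close in, with 20 of 31 within 10 kb and a median of 5.84 kb. They were also weak: with peaks above the median signal of each library only, Foxd3 had 9 and Foxp2 had 4. Foxb1 had 43, 34 and 25 and Foxf2, a factor of palate and gut mesenchyme, 25, 48 and 17.

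**Figure D4:**
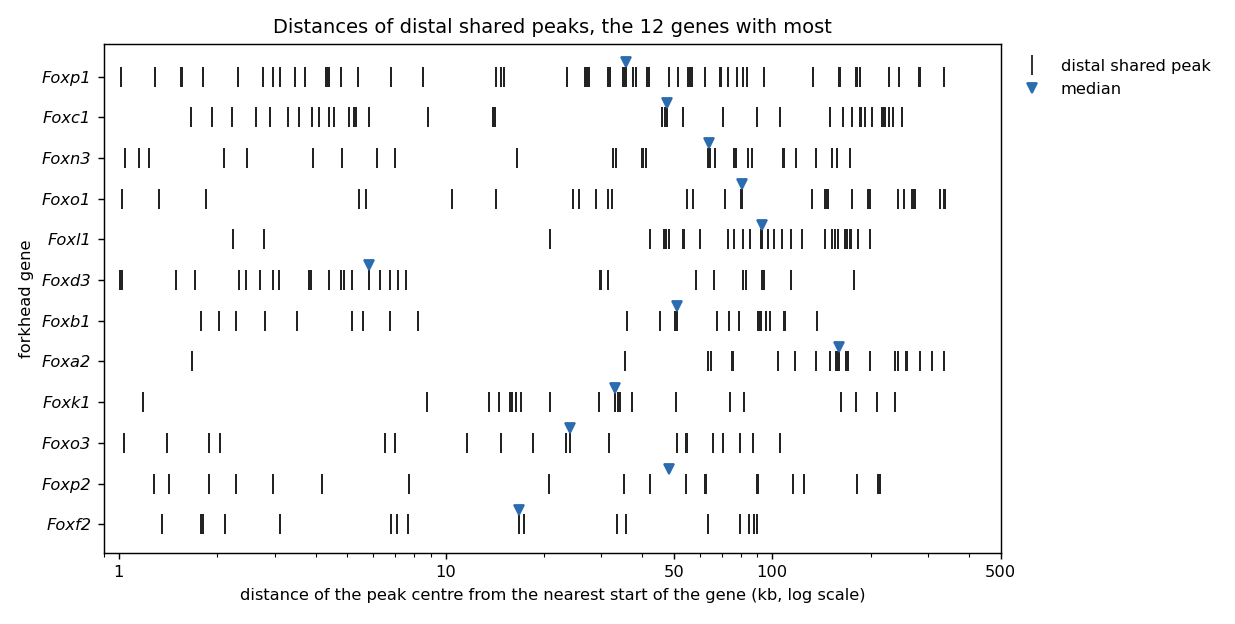
Distance from the nearest start of the gene (kb, log scale) of each distal shared peak of the 12 forkhead genes with the most; triangles mark medians. The Foxd3 peaks gather within 10 kb while the Foxa2 peaks lie mostly beyond 100 kb.

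The remaining members had fewer. Foxf1 had 16 shared distal peaks (23 in replicate 1 and 30 in replicate 2), and Foxd1, a stromal factor of the kidney, had 26 distal peaks in replicate 1, 36 in replicate 2 and 14 shared. Of shared distal peaks Foxo6 and Foxp4 had 10 each, Foxd2 and Foxn2 9 each, Foxq1 8, and Foxb2 and Foxi2 7 each. Foxd4, Foxe1, Foxi3 and Foxj2 had 6 each, Foxi1 5, Foxa1 and Foxn1 4 each, and Foxc2, Foxe3, Foxl2 and Foxs1 3 each. Foxh1, Foxj3, Foxn4 and Foxr2 had 1 each. The 7 with 0 were Foxa3, Foxj1, Foxk2, Foxm1, Foxo4, Foxp3 and Foxr1; at Foxj1, Foxk2, Foxo4 and Foxr1 a single distal peak was seen in 1 library. Low counts went with short sequence in Foxm1, whose nearest sequence was 3.82 kb, and in Foxa3 (8.75 kb), but Foxk2 had 56.5 kb.

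By role, densities were first pooled, as all distal shared peaks of a group over all its nearest sequence. The mesenchyme and mesoderm group was the densest, with 12.98 per 100 kb (139 peaks over 9 genes), against 3.77 over all genes. The neural and early group had 7.43, the broad group 6.13, the epithelial group 4.60, the endoderm group 4.39 and the group of Foxp3, Foxr1 and Foxr2 1.23. The limb mesenchyme marker genes, which include Prrx1 and Twist1, had 11.5, and the neural marker genes 7.42. By the median per gene the mesenchyme and mesoderm group had 15.6 and the neural and early group 12.3, against 3.01 over all genes. That median was 6.47 in the broad, 5.47 in the epithelial and 2.88 in the endoderm group. It was 12.1 at the limb mesenchyme markers and 11.6 at the neural markers, so the gaps depend on the measure. Foxc2, which acts in vessels and the axial skeleton, had the highest density of any member, 38.6 per 100 kb, which rests on 3 distal shared peaks in 7.77 kb of nearest sequence. Its hotspots were narrow, at 371 bp in replicate 1 and 357 bp in replicate 2, around a promoter peak with signals of 116 and 108, 50 bp from the start.

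Fewer of the members' distal shared peaks lay in introns of the gene itself than over all protein-coding genes. Of the 516, 107 were in an intron of the same gene (20.7%), against 36.3% over all genes. Intergenic peaks numbered 288 (55.8%), against 51.7%, peaks in the body of another gene outside exons 88 (17.1%), against 8.17%, and peaks in an exon 33 (6.395%), against 3.84%. Of the 88 in another gene, Foxl1 held 33, Foxc1 22 and Foxf1 15, so that share rests mostly on these members. The strongest Foxl1 distal peak and a Foxf1 distal peak both lay in the same annotated gene, Gm20388, so peaks of different members can share 1 host annotation. Within 10 kb of a start lay 164 (31.8%), against 24.4% of the distal shared peaks of all genes, and within 100 kb 75.6%, against 76.0%. Short words were searched as well. At least 1 of 4 forkhead words (the word TGTTTAC, the word TGTTTAT, the word TATTTAC or the word TATTTAT) was in 54 of 516 (10.5%), against 9.30% over all genes, and TGTTTAC alone in 2.33%, against 2.37%. The MEIS word was in 12.98%, against 11.7%, the SOX word ACAATGG in 1.16%, against 1.87%, the TEAD word in 8.33%, against 10.99%, the E-box CAGCTG in 14.0%, against 16.6%, the E-box CATCTG in 15.3%, against 19.9%, and the CTCF consensus in 1.74%, against 2.86%. All words were searched on both strands of the middle 150 bases, and a match is not shown to be a site.

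The word of the Hedgehog effectors GLI, TGGGTGGTC, was in 4 of the 516 (0.78%), against 0.26% over all genes, a count too small to compare. The 4 elements lie by Foxa2, Foxb2, Foxf1 and Foxp2 and are shown on the plus strand with all searched words in capitals; GACCACCCA is the reverse complement of the GLI word, and they were picked after the search.
Foxa2 distal peak, chr2:148182636-148182785: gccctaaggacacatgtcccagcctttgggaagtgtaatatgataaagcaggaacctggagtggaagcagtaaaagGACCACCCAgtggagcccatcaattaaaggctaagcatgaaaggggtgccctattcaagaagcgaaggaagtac
Foxb2 distal peak, chr19:16876476-16876625: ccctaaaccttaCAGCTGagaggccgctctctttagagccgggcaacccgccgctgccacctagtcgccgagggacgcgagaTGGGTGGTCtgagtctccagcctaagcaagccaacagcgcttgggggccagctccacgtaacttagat
Foxf1 distal peak, chr8:120993776-120993925: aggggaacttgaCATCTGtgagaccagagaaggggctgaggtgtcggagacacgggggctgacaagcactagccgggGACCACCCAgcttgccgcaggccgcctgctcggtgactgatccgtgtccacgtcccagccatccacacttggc
Foxp2 distal peak, chr6:14898306-14898455: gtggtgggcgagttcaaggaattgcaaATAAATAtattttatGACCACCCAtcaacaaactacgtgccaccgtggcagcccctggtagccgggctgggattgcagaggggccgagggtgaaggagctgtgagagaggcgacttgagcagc
The Foxp2 element, 2.97 kb from a start, was the strongest, with signals of 94 in replicate 1 and 92 in replicate 2, and also holds a forkhead word. The Foxb2 element, 2.75 kb away, had 48 and 45. The Foxa2 and Foxf1 elements were farther, at 136 kb and 90.5 kb, with 54 and 50 and with 50 and 39. Regulators and partners of forkhead proteins, a list of 20 genes, all had a shared promoter peak, against 66.8% of all protein-coding genes. The median CpG ratio of the list was 0.82, and 97.4% of all genes with a ratio of 0.6 or more had such a peak. Among the 20 the Hedgehog effectors Gli3 and Gli2 had 46 and 32 distal shared peaks and the signal transducer Smo 4. The Foxh1 partners Smad3 and Smad2 had 23 and 19, and the Foxo regulator Sgk1 20; the median of the 20 was 3.5.

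Forkhead genes in clusters differed between the libraries gene by gene. Over all protein-coding genes 28.0% of the peaks within 10 kb of a start in replicate 1 overlapped no peak of replicate 2, and 22.7% of those in replicate 2 overlapped none of replicate 1. Over the 44 members these shares were 29.7% and 41.0%; a peak near several genes counts for each of them. On chromosome 13 Foxq1, Foxf2 and Foxc1 lie within 256 kb (31556134 to 31812476). That interval held 62 peaks in replicate 1 and 98 in replicate 2, of which 46 regions were shared. Within 10 kb of its start Foxf2 had 13 peaks in replicate 1 and 36 in replicate 2, and 24 of the 36 overlapped no peak of replicate 1. Foxq1 had 2 and 9, while Foxc1 had 24 and 31. On chromosome 8 Foxf1, Foxc2 and Foxl1 lie within 46.3 kb (121084386 to 121130644), and there the genes differed in opposite ways. Foxf1 had 4 peaks within 10 kb in replicate 1 and 16 in replicate 2, 13 of which were not in replicate 1. Foxl1 had 10 in replicate 1 and 3 in replicate 2, and 7 of the 10 were not in replicate 2. At Foxc2, which a gap of 9.05 kb separates from Foxl1, the promoter peak was shared, but the counts within 10 kb were 12 in replicate 1 and 7 in replicate 2, and 6 of the 12 were not in replicate 2; the windows of Foxc2 and Foxl1 overlap. Foxd2 and Foxe3, within 19.7 kb on chromosome 4, had 5 peaks in replicate 1 and 10 in replicate 2 between them, 5 shared.

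**Figure D5:**
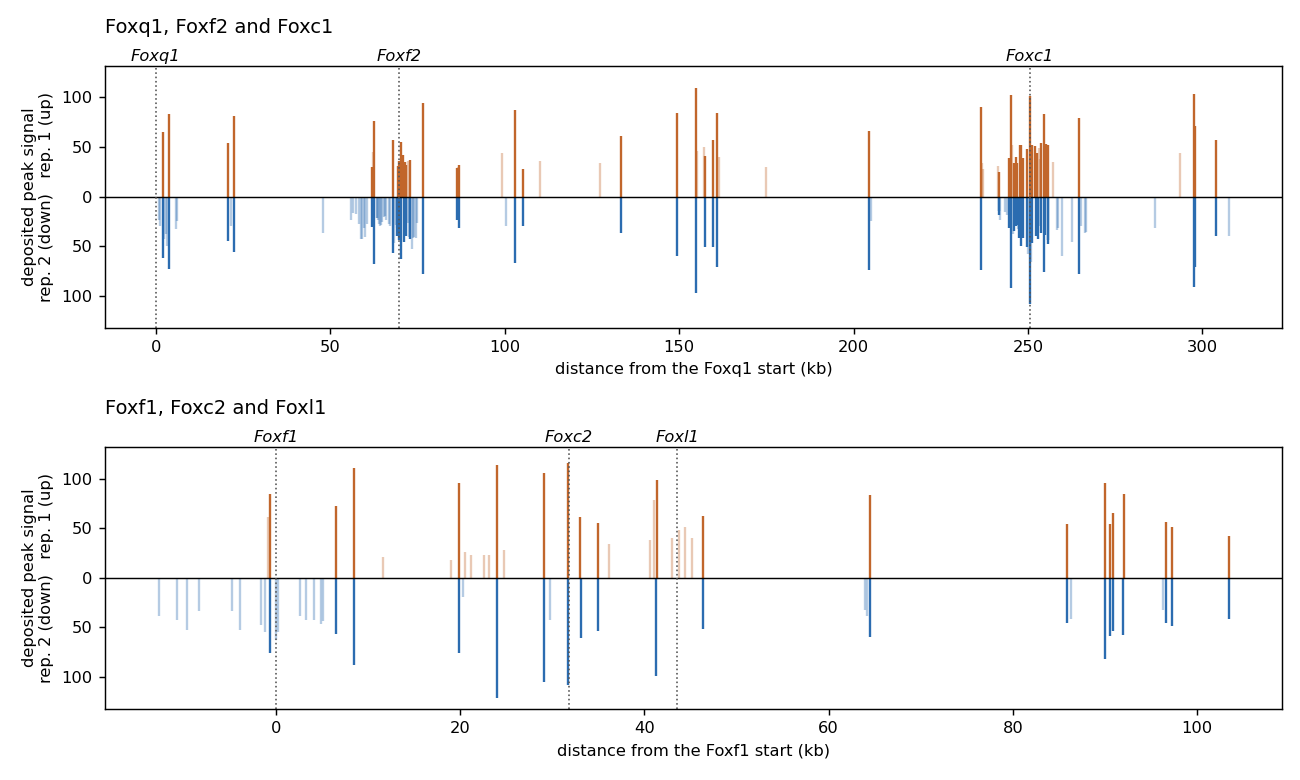
Peaks over the chromosome 13 and chromosome 8 clusters by distance from the first gene's start (kb), with the deposited signal upward for replicate 1 and downward for replicate 2; dark lines overlap a peak of the other library, pale lines do not, and dotted lines mark starts. Pale lines of replicate 2 gather at Foxf2 and Foxf1 and pale lines of replicate 1 at Foxl1.

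Within 10 kb of a start 24 members had more peaks in replicate 2, against 22.2% of all protein-coding genes. In replicate 1 13 had more, against 36.9%, and 7 had equal counts, against 8930 of 21853. Ties were thus more frequent over all genes, which lowers both of their shares. For distal peaks 17 members had more in replicate 2, against 22.3% of all genes, 16 in replicate 1, against 30.8%, and 11 were equal. Summed by role, the mesenchyme and mesoderm group had 99 in replicate 1 and 141 in replicate 2, the epithelial group 16 and 38, the neural and early group 110 and 113, the broad group 143 and 152, the endoderm group 7 and 11, and Foxp3, Foxr1 and Foxr2 together 6 and 3. Members of each larger group went both ways. Foxe1 had 0 peaks in replicate 1 and 10 in replicate 2, Foxa1 2 and 7, Foxd1 15 and 22, and Foxd2 11 and 17. Foxb1 was the other way round, with 28 in replicate 1 and 13 in replicate 2, of which 16 and 2 had no partner. Foxd3 had 30 and 31, Foxb2 16 and 16, and Foxd4 12 and 13. Of the broad genes Foxp1 had 34 and 38, Foxn3 18 and 18, Foxo3 11 and 12, and Foxo1 9 and 8, while Foxo6 had 3 and 6, Foxo4 and Foxj3 4 and 6 each, and Foxn2 5 and 3.

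Private peaks, meaning those with no overlap to any peak or hotspot in the other replicate, made up 189 of 876 promoter and distal peaks of forkhead genes in replicate 1 (21.6%) and 263 of 916 in replicate 2 (28.7%), against 21.4% and 21.3% over all protein-coding genes. Among promoter peaks alone the shares were 9.57% in replicate 1 and 23.8% in replicate 2, against 8.05% and 11.1%. Over promoter and distal peaks together, private peaks made up 20.7% in replicate 1 and 37.8% in replicate 2 in the mesenchyme and mesoderm group, 32.9% and 39.5% in the epithelial group, 26.8% and 26.8% in the endoderm group, 19.3% and 24.6% in the neural and early group, and 20.4% and 21.8% in the broad group. For Foxp3, Foxr1 and Foxr2 together they were 1 of 5 and 0 of 3. The most private peaks in replicate 2 were at Foxf2 (32 of 54, with signals up to 53) and Foxp1 (28 of 101, up to 44), and the highest private signal among members was 75, at Foxa1. Replicate 2 had 95.96% as many deposited peaks as replicate 1. It also had more peaks with a decimal in their deposited signal, 13719 against 9586 in replicate 1; counting only peaks with a whole-number signal, Foxf2 had 25 distal peaks in replicate 1 and 43 in replicate 2. Replicate 2 carries 2 instrument models in its labels, whereas the labels of replicate 1 give none, and the part of the instrument in these differences was not tested.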

How the data were processed

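DNase-seq peaks and hotspots of 2 limb libraries were used, 1 per biological replicate. The peak signal is the value the authors deposited for each 150 bp peak, with its scaling not given in the sources used here, so it was used only to describe and rank peaks within a list. The −log10 q of hotspots is also as deposited, with 100 read as a ceiling. Per the file descriptions deposited with the data, each library was aligned to mm10 and had its own regions called, with no pooling. For the aligner and the caller, no name is given in the sources used here. Read depth is unknown, so no interval based on depth is given.

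Overlapping peaks within 1 library (5030 in replicate 1 and 7025 in replicate 2 were absorbed) were merged, keeping the highest signal. Genes and starts came from GENCODE M21 and bases from RefSeq's GRCm38 genome. Peaks ended within that assembly's chromosomes, and only chromosomes 1 to 19, X and Y were used. Counts, overlaps and words were computed in Python 3.11.15 with NumPy 2.4.6, SciPy 1.17.1 and pysam 0.24.0, and the counting steps were tested on simulated data.

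The members, lists and tests were chosen with earlier results of these data known. Full values are given for the 12 members with the most distal shared peaks, the 3 with the widest hotspots (Foxo3, Foxd1, Foxp2) and the 3 with the largest difference between libraries (Foxf2, Foxd1, Foxb1); other genes named beyond counts were chosen after their values were seen. No statistical test was run, since both libraries belong to 1 group. The values of 1 member and 1 listed regulator, and 1 sequence, are not reported here.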

Additional observations from a re-analysis of the deposited data

How the results depend on the processing

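The number of forkhead genes with a shared promoter peak lay between 29 and 37 under every alternative run, against 33 as reported, and was 34 and 37 in the libraries alone. The median of distal shared peaks per gene was 6.5. It was 3.5 with peaks above the median signal, 6 with the stricter overlap (50% of a peak), 7.5 with a promoter window of 500 bp and 6 with one of 2 kb, and 6 with a reach of 100 kb and 4 with 50 kb. It was 8 with all distal peaks within 50 kb, 5 with hotspots and 7.5 with the most upstream start only, and 10.5 to 10.5 without either replicate. The number of genes with 10 or more, 17 as reported, was 9 with peaks above the median signal and 11 with a reach of 50 kb. The sum of distal shared peaks, 516 as reported, was 273 with peaks above the median signal, 284 with a reach of 50 kb and 761 to 790 without either replicate. Shared peaks in gene bodies numbered 196 as reported, 106 with peaks above the median signal and 298 to 306 without either replicate. Hotspots of 2 kb or more in both libraries (5 genes) became 13 with a width of 1 kb and 6 to 9 without either replicate. The share of peaks found in the other library, 67.6% on average over the libraries (69.2% of replicate 1 and 66.05% of replicate 2, against 70.5% and 74.6% over all protein-coding genes), was 73.4% with peaks above the median signal and 58.9% with the stricter overlap. The share with a forkhead word, 10.5% as reported, was 8.97% with a reach of 100 kb, 23.1% in 300 bp and 2.33% for TGTTTAC alone. Counting only whole-number signals, chosen after seeing the data, gave a median of 6, and leaving overlapping peaks unmerged, also chosen then, gave 6.5. Of 130 values for named genes, 86 stayed within 1.5 times; Foxa2, 25 as reported, had 6 within 100 kb. Settings that count less sequence, fewer peaks or 1 library change these counts by construction, and the cause of other moves was not tested. No paired analysis was possible because there was only 1 group. Unknown read depth limits what the difference between the libraries can show.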
